A study of Homo sapiens with 6 samples.

Results

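The HOX genes of HPC, a human podocyte cell line, were examined as a map of position: which of the 4 clusters and 13 paralog groups were transcribed, and whether that map moved when PRDM16 was overexpressed. The members were all rows of the deposited tables whose gene name is HOX, a cluster letter from A to D and a number. This rule uses no measured value and gave 39 genes of the 38648 listed. The libraries came from cells labelled human podocyte, genotype WT, all in high glucose, with 24 h in every title. They had received a control lentivirus, labelled NC, or the lentivirus made to overexpress PRDM16. There were 3 NC and 3 PRDM16 libraries of poly(A) RNA. Separate cultures are not mentioned in the labels. The p-values therefore rest on the spread between libraries, which may be technical. The sources used here do not give the glucose level, the promoter of the lentivirus or what the 24 h count from, and cells in normal glucose were not analysed here.

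HOX genes encode homeodomain transcription factors that give cells their address along the body axis. In each cluster the genes lie in a row in the order of their paralog numbers, and in the embryo low numbers are used near the head and high numbers near the tail. Adult cells and cell lines often keep the HOX pattern of the place they came from. In the embryonic kidney, genes of paralog group 11 (HOXA11, HOXC11 and HOXD11) act in the mesenchyme from which the epithelium of the nephron, podocytes included, is made.

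Library totals ranged from 20147135 to 41280350 counts. PRDM16, a zinc finger transcription factor best known from brown fat, had 0 counts in each NC library and 11, 18 and 24 counts in the PRDM16 libraries (edgeR adjusted p = 0.000771). That is 0.163 to 0.190 TPM, a low level, under the limit of 1 TPM used below to call a HOX gene on. Among podocyte markers, PODXL, which encodes the sialoprotein of the podocyte surface, was expressed at 49.0 to 62.7 TPM, as was SYNPO, which encodes an actin-binding protein of the foot process, at 7.004 to 8.02 TPM. NPHS1, which encodes nephrin of the slit diaphragm, WT1 and PTPRO were at most at 0.112 TPM in any library, so these defining genes were near absent. PAX8, a kidney transcription factor kept by parietal epithelium, stood at 135 to 178 TPM, and KRT8, a keratin of simple epithelia, was also abundant. NC library 2 was the lowest of the 6 libraries for 32.8% of all tested genes.

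A HOX gene was called on where it reached at least 1 TPM (a level corrected for gene length and scaled to a fixed library total, deposited by the authors) in each of the 6 libraries. By that measure 34 of the 39 genes were on, against 32.9% of all listed genes. The 5 others were HOXA13, HOXB1, HOXC12, HOXD12 and HOXD13, whose highest value in any library was 0.494 TPM. The gap between both sets was wide: the lowest value of any gene that was on was 1.33 TPM, for HOXB13. The same 34 genes reached at least 10 counts in every library. At a limit of 2 TPM, 29 genes were on.

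**Figure D1:**
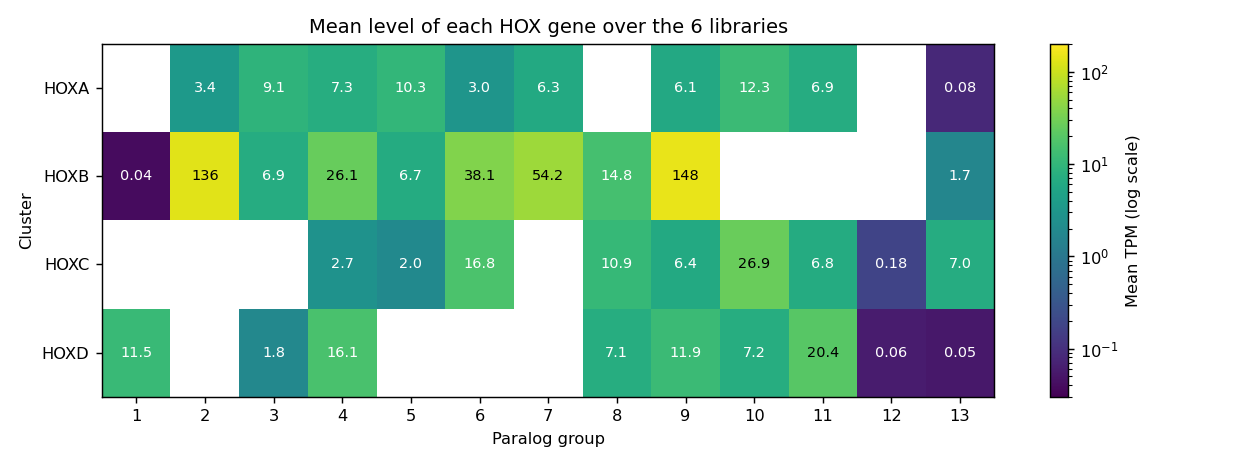
Mean TPM of each HOX gene over the 6 libraries (colour, log scale; printed number, TPM), with clusters as rows and paralog groups as columns; white squares have no gene or a gene not reported here. The bright squares are HOXB2 and HOXB9, and the dark squares are the 5 genes that were not on.

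All 4 clusters were transcribed over most of their length. The HOXA cluster (chromosome 7, hg38) had 10 of 11 genes on, the HOXB cluster (chr17:48528526-48728750) 9 of 10, the HOXC cluster (chr12:53938831-54056030) 8 of 9 and the HOXD cluster (chr2:176087487-176190907) 7 of 9. Except for HOXC12, the genes that were not on sat at a cluster end or, as HOXD12, beside an end gene that was not on. In HOXA and HOXD, the run of genes that were on ended between paralog group 11 and the genes with higher numbers. HOXB1, the gene at the opposite, low-numbered end of its cluster, was the other end gene that was not on. HOXB13, HOXC4, HOXC13 and HOXD1, also at cluster ends, were on.

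The HOXA border fell in a stretch of 9131 bases between HOXA11 and HOXA13. HOXA11 stood at 7.71, 7.14 and 6.48 TPM in NC libraries 1 to 3 and at 6.89, 6.44 and 6.65 TPM in PRDM16 libraries 1 to 3. HOXA13, the most posterior gene of the cluster, had 4, 7 and 4 counts in the NC libraries and 0, 6 and 3 counts in the PRDM16 libraries. HOTTIP, a long RNA started beside HOXA13, was at most at 0.0225 TPM, and EVX1, the homeobox gene beyond it, was listed at 0.

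The HOXD border was narrower, with 4790 bases between HOXD12 and HOXD11. HOXD11 was the highest HOXD gene, at 22.3, 21.7 and 17.8 TPM in the NC libraries and 18.9, 18.6 and 23.2 TPM in the PRDM16 libraries. HOXD12 had 0, 4 and 0 counts in the NC libraries and 1, 1 and 4 in the PRDM16 libraries. HOXD13, which patterns digits and the urogenital tract, had 7, 2 and 0 counts in the NC libraries and 2, 3 and 6 in the PRDM16 libraries. EVX2, the homeobox gene beyond HOXD13, was listed at 0. The deepest library thus gave 6 counts for HOXD13 where HOXD11 had 593.

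The 4 genes at these borders are shown by the 250 bases before their RefSeq start (GRCh38.p14, 5′ to 3′ on the coding strand), because they let the last gene that was on be read beside the next gene that was not. Capitals mark CpG dinucleotides. HOXA11 lies at chr7:27185233-27185482 and HOXA13 at chr7:27200092-27200341, both on the minus strand. HOXD11 lies at chr2:176107030-176107279 and HOXD12 at chr2:176099545-176099794, both on the plus strand.
HOXA11: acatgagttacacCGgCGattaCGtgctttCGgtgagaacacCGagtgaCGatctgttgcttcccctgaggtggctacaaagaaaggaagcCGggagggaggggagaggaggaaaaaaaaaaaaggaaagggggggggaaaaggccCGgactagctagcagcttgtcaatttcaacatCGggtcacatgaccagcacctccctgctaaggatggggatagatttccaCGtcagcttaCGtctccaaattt
HOXA13: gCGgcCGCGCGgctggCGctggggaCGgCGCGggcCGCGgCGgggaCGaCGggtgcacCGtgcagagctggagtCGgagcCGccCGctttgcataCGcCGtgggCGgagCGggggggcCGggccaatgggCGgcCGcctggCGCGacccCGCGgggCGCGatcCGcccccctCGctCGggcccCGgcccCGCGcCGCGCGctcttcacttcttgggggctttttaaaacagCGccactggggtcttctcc
HOXD11: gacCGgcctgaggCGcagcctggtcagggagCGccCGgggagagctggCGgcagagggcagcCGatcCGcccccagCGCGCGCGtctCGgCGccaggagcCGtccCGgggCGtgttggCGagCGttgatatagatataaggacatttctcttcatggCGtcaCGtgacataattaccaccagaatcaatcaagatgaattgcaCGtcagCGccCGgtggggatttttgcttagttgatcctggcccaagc
HOXD12: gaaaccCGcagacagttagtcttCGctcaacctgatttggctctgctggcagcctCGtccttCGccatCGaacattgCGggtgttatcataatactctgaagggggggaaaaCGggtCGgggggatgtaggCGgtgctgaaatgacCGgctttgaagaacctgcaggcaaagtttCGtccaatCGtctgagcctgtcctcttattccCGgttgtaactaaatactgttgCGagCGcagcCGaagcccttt

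Among the HOX genes with a RefSeq window, CpG number did not separate the genes that were on from those that were not. HOXA13, which was not on, held 40 CpGs, more than 97.8% of the 35116 promoter windows of the RefSeq table. Its neighbour HOXA11, which was on, held 11. At the HOXD border the order was the other way round, with 23 CpGs before HOXD11 and 16 before HOXD12. RefSeq windows were found for 20 of the 39 HOX genes. HOXB1 was the only HOXB gene among them, and HOXC4 and HOXC5 were the only HOXC genes. No HOXB gene that was on thus enters the comparison. The 16 that were on had a median of 20.5 CpGs (range 4 to 31), the 4 that were not on a median of 18.5 (range 7 to 40), and all windows a median of 11. HOXC4 and HOXC5 share a window, and the RefSeq starts of HOXD4 and HOXD13 lie 1156 and 5234 bases from the 5′ ends of the deposited gene models.

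The same windows were searched on both strands for 4 motifs. The CCAAT box (CCAAT) was in 17 of the 20 HOX windows, against 32.0% of all windows. It was in the windows of HOXA13, HOXB1, HOXD12 and HOXD13, which were not on. It was also in 13 of the 16 windows of genes that were on, though not in those of HOXA11 and HOXD11. The GC box (GGGCGG, whose CG also counts as a CpG) was in 10 of 20 HOX windows, against 42.6% of all. The TATA box (TATAAA) was in 4 of 20, against 10.7%, and the composite site of HOX and PBX proteins (TGATNNAT) in 3 of 20, against 6.47%. These are matches of letters in a fixed window and no test was made of them.

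In HOXC the gene that was not on lay inside the cluster. HOXC12 had 13, 4 and 1 counts in the NC libraries and 3, 4 and 10 in the PRDM16 libraries, which is at most 0.494 TPM. HOXC13, the last gene of the cluster and 8358 bases from HOXC12, was on at 6.95, 6.71 and 7.34 TPM in the NC libraries and 7.48, 7.09 and 6.42 TPM in the PRDM16 libraries. HOXC11, on the other side of HOXC12, stood at 7.68, 6.52 and 6.35 TPM in the NC libraries and 6.23, 6.20 and 7.59 TPM in the PRDM16 libraries. HOXC12 was thus a gene that was not on between 2 genes of like level. HOXC13, known for its role in hair and nail, had the lowest coefficient of variation of TPM of all HOX genes over the 6 libraries, 5.62%. The last HOXB gene was also on: HOXB13, a factor of the prostate and hindgut that lies 98404 bases from HOXB9, reached 1.59, 1.52 and 1.81 TPM in the NC libraries and 1.91, 1.33 and 2.04 TPM in the PRDM16 libraries. PRAC1 and PRAC2, small genes beside HOXB13, were at most at 0.325 and 0.547 TPM.

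By amount, the code of this line was a HOXB code. The 39 genes summed to 660.3 ± 58.9 TPM (SD, n = 6), of which the HOXB cluster made 65.4% ± 1.14 (SD, n = 6). HOXC made 12.04% ± 0.299, HOXD 11.6% ± 0.801 and HOXA 10.9% ± 0.652 (SD, n = 6). The HOXB share lay between 63.4% and 66.6% in the 6 libraries, and the highest share of any other cluster in a library was 12.6%, for HOXD. The ranges of the other 3 clusters over the libraries overlapped. Within each of the 6 libraries HOXC lay above HOXA by TPM, while the place of HOXD varied. By counts in place of TPM the means of HOXC and HOXA were the other way round, at 10.94% and 11.37%.

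Within HOXB, HOXB9 and HOXB2 stood far above their neighbours. HOXB9, a gene of the thoracic and lumbar axis, stood at 177, 137 and 144 TPM in the NC libraries and 130, 146 and 154 TPM in the PRDM16 libraries. HOXB2, a gene best known from the hindbrain, stood at 159, 118 and 127 TPM in the NC libraries and 124, 135 and 151 TPM in the PRDM16 libraries. HOXB9 was the higher of both in 6 of 6 libraries, yet their ranges overlapped. Together they made 43.0% ± 2.36 (SD, n = 6) of all HOX TPM, and they lay at the 92.1 and 91.5 percentile of the genes tested. HOXB1, 11643 bases from HOXB2, had at most 2 counts in any library. A count of 0 allows up to 3 counts, which stand for 0.0727 to 0.149 CPM (counts scaled to a fixed library total, with no correction for length) in these libraries, for counting error only.

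The rest of HOXB fell into a middle and a low tier. HOXB7 followed at 58.9, 57.9 and 57.6 TPM in the NC libraries and 41.4, 55.6 and 53.6 TPM in the PRDM16 libraries. HOXB6 stood at 38.6, 39.96 and 41.0 TPM in the NC libraries and 29.7, 38.8 and 40.8 TPM in the PRDM16 libraries. For both, PRDM16 library 1 was the lowest. HOXB4, a gene known from blood stem cells, stood at 28.2, 28.2 and 28.5 TPM in the NC libraries and 19.5, 25.2 and 26.8 TPM in the PRDM16 libraries. HOXB8 averaged 14.8 ± 2.02 TPM and HOXB5 6.67 ± 1.22 TPM (SD, n = 6). HOXB3 averaged 6.93 ± 1.06 TPM (SD, n = 6) on a listed length of 18337 bases, the longest of all HOX genes. That length lowers its TPM, and by CPM it stood at 39.3 to 51.4 CPM.

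The HOXA genes were even. Their 10 members that were on lay between 2.95 TPM (HOXA6) and 12.3 TPM (HOXA10) on average, and HOXA10, a gene of the uterus and the lower axis, made 17.0% ± 0.908 of the cluster (SD, n = 6). HOXA10 stood at 12.2, 13.9 and 12.8 TPM in the NC libraries and 9.38, 13.1 and 12.3 TPM in the PRDM16 libraries. HOXA5, a gene of lung and neck development, stood at 10.3, 13.9 and 11.6 TPM in the NC libraries and 7.32, 9.85 and 8.95 TPM in the PRDM16 libraries. On the TPM scale the groups did not overlap, all lower with PRDM16, for 7 of the 34 tested HOX genes (HOXA5, HOXB3, HOXB4, HOXB7, HOXD1, HOXD4 and HOXD10), against 17.3% of all tested genes, and for 0 they did so higher, against 4.62%. The TPM of all tested genes was lower with PRDM16 by a median of -0.16 on the log2 scale, so differences between the groups are read below from CPM scaled between libraries, where the groups overlapped for each of these 7. HOXA3, a gene of thymus and parathyroid, averaged 9.08 ± 1.04 TPM, HOXA4 7.31 ± 0.741 and HOXA2 3.39 ± 0.538 TPM (SD, n = 6). HOXA6 was the most variable gene of those that were on, with 13 to 42 counts and a coefficient of variation of 31.9%.

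Some of these levels rest on shared exons. HOXA7 averaged 6.26 ± 0.742 TPM (SD, n = 6), but 74.8% of its exon bases are overlapped on the other strand by HOXA-AS3. HOXA9, a gene known from leukaemia, averaged 6.08 ± 0.840 TPM (SD, n = 6), and 72.4% of its exon bases are shared with the readthrough gene HOXA10-HOXA9. HOXA10 shares 29.9% of its bases with that gene and with HOXA10-AS. HOXC4, HOXC5 and HOXC6 have a stretch of 527 exon bases in common. How reads in shared exons were assigned, and whether strand was used, is unknown here. The levels of HOXA9, HOXC4, HOXC5 and HOXC6, which overlap on the same strand, of HOXA7, which overlaps on the other strand, and of HOXA10, which overlaps on both, are therefore uncertain.

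HOXC was led by HOXC10 and HOXC6. HOXC10, a gene of the lumbar axis and the hindlimb, stood at 30.4, 25.9 and 28.9 TPM in the NC libraries and 22.5, 26.9 and 26.6 TPM in the PRDM16 libraries. HOXC6 stood at 21.1, 16.6 and 16.2 TPM in the NC libraries and 13.6, 16.4 and 16.8 TPM in the PRDM16 libraries. HOXC10 was above HOXC6 in every library. HOXC8, a gene of the thorax, averaged 10.9 ± 1.0004 TPM and HOXC9 6.38 ± 1.06 TPM (SD, n = 6). HOXC4 and HOXC5 were the lowest of the cluster that were on, with 2.66 ± 0.776 and 1.96 ± 0.315 TPM (SD, n = 6).

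In HOXD, levels rose and fell from gene to gene. HOXD4 stood at 17.8, 17.4 and 16.8 TPM in the NC libraries and 14.1, 14.8 and 15.4 TPM in the PRDM16 libraries, and HOXD3, 1228 bases away, averaged 1.85 ± 0.375 TPM (SD, n = 6). HOXD9 stood at 12.1, 12.5 and 10.5 TPM in the NC libraries and 13.3, 10.8 and 12.4 TPM in the PRDM16 libraries. HOXD1, at the anterior end, stood at 15.5, 10.9 and 11.3 TPM in the NC libraries and 10.1, 10.8 and 10.6 TPM in the PRDM16 libraries. NC library 1 alone was high for HOXD1. HOXD10 averaged 7.25 ± 1.46 TPM and HOXD8 7.14 ± 0.817 TPM (SD, n = 6).

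**Figure D2:**
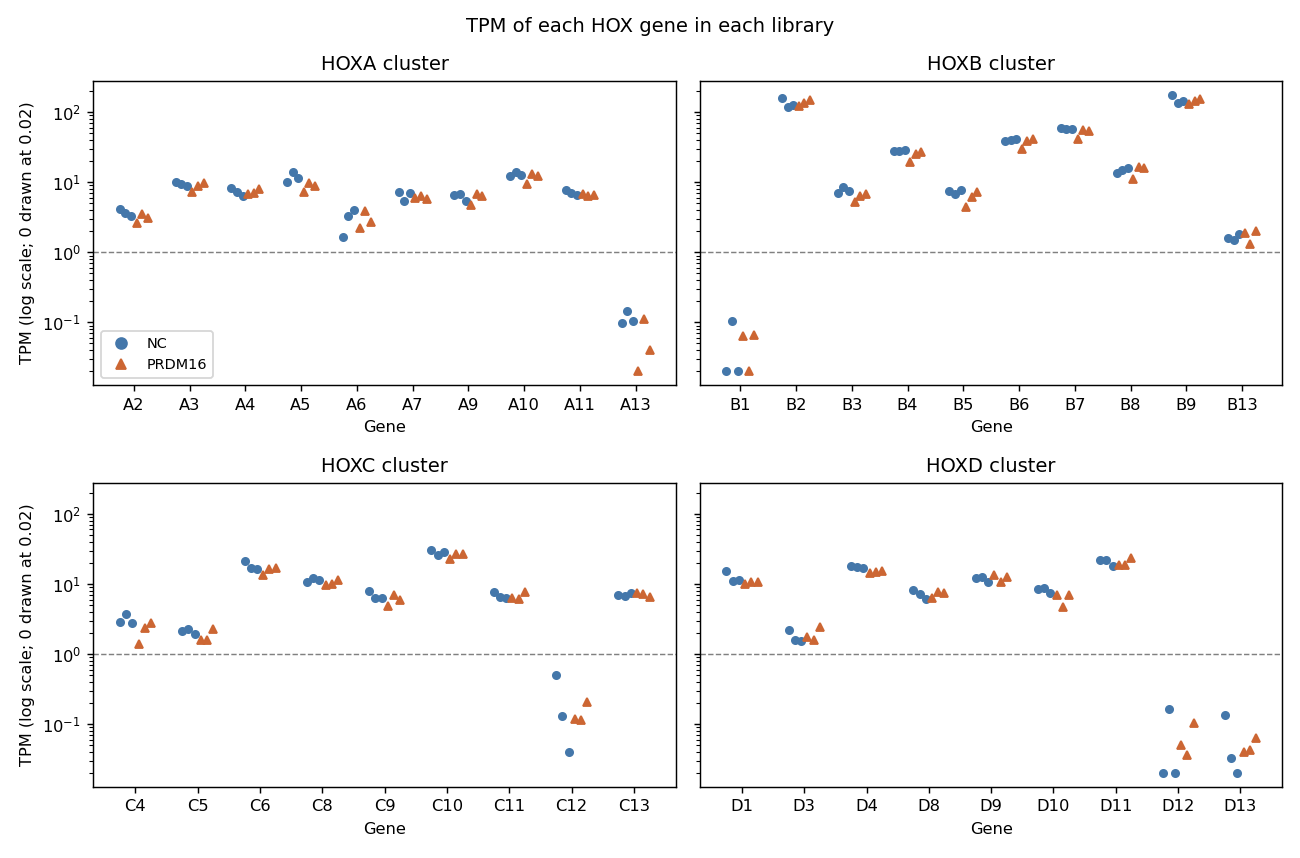
TPM of each HOX gene (log scale, values of 0 drawn at 0.02) in the 3 NC libraries (circles) and 3 PRDM16 libraries (triangles), by cluster; the dashed line marks 1 TPM. Genes above the line stay above it in every library, and the 5 below stay below it.

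Across clusters, the paralog groups were used unequally. Group 9 made 26.1% ± 0.932 of all HOX TPM and group 2 made 21.1% ± 1.53 (SD, n = 6), each mostly through its HOXB gene: HOXB9 made 85.8% of group 9 and HOXB2 97.6% of group 2. With HOXB set aside, group 10 was the largest, at 20.3% of the rest, ahead of group 11 at 15.0% and group 4 at 11.4%. Group 11 had all 3 of its genes on, at 34.1 ± 3.17 TPM in sum (SD, n = 6), of which HOXD11 made 59.9%. Group 12 had no gene on, with a summed level of 0.242 ± 0.158 TPM (SD, n = 6). Group 13 had 2 of 4 on, HOXC13 and HOXB13. Groups 2 to 11 were on in full.

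Placed in order of mean TPM, the 39 genes formed 38 neighbouring pairs, and in 4 of them the 6 values of both genes did not overlap. These were HOXB2 above HOXB7, HOXB7 above HOXB6, HOXA9 above HOXA2, and HOXB13 above HOXC12, the step from on to not on, which was 9.29-fold on the TPM scale. The other 34 pairs overlapped, so that the order inside the run from HOXB6 down to HOXA9 and from HOXA2 down to HOXB13 was not fixed by these libraries. Of the genes that were on, 3 averaged over 50 TPM, 12 between 10 and 50, 13 between 5 and 10 and 6 under 5. Their median was 7.42 TPM, against 11.99 TPM for all genes tested.

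With the PRDM16 lentivirus, the same 34 genes were on as with NC, and none of them passed the test. These 34 were also the HOX genes that passed the filter on low counts. In edgeR's quasi-likelihood test, 0 of 34 had an adjusted p under 0.05, where 0.065% of all 15381 genes did, so that a count of 0 among 34 is near the background. DESeq2 and limma-voom also gave 0. Without adjustment, 0 of 34 HOX genes had a p under 0.05, against 16% of all genes. The groups did not overlap for 1 of 34 HOX genes, against 21% of all genes, counted in either direction. In bulk RNA, fewer cells of a kind and less RNA per cell cannot be told apart.

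The interval of each change gives its uncertainty in edgeR with every library, and rests on the spread between libraries alone. The 95% intervals of all 34 log2 fold changes (PRDM16 minus NC) lay inside -1 to 1, as did those of 89.8% of all tested genes. For 22 of the 34 they lay inside -0.5 to 0.5. The median size of the change, without its sign, was 0.11 on the log2 scale, against 0.19 for all tested genes, and the median standard error was 0.16 against 0.14. The intervals run from -0.86 at the lowest (HOXC4) to 0.79 at the highest (HOXA6).

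**Figure D3:**
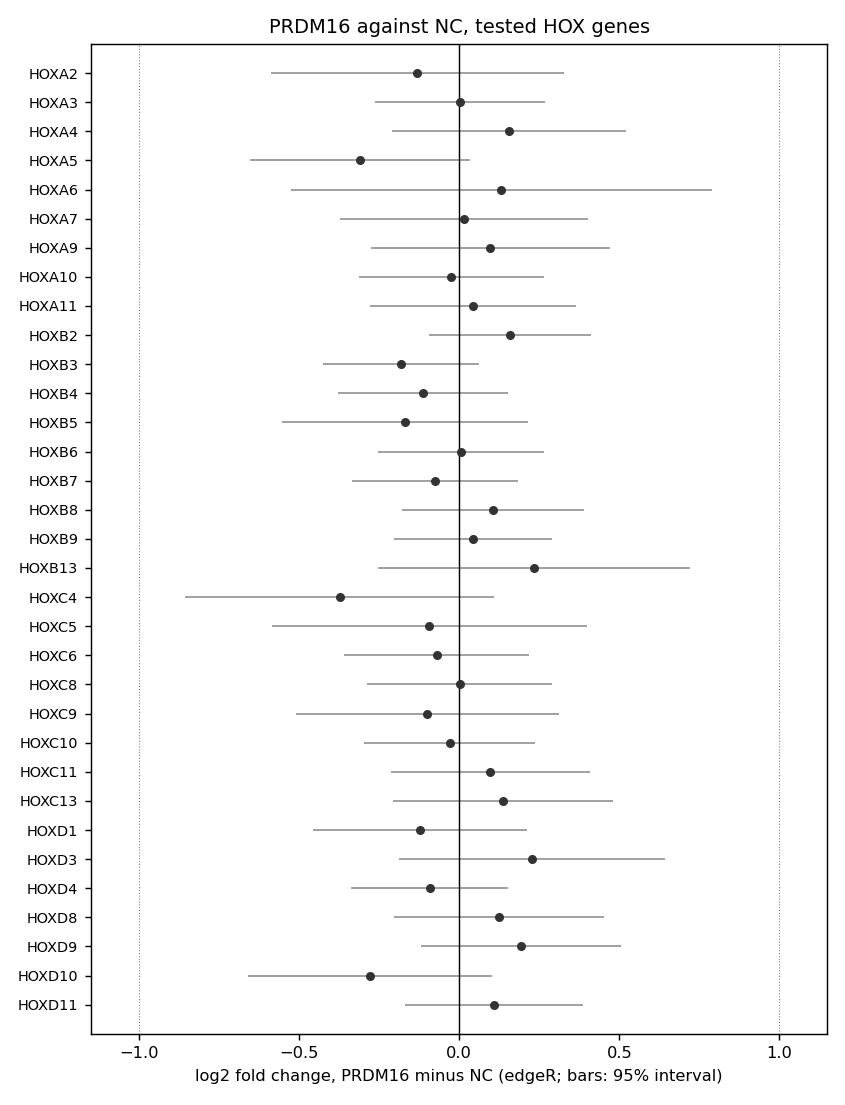
Log2 fold change (PRDM16 minus NC) of the tested HOX genes from edgeR, with 95% intervals; the solid line marks 0 and the dotted lines mark -1 and 1. Every interval lies between the dotted lines, from -0.86 for HOXC4 to 0.79 for HOXA6.

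The 6 genes with the smallest p in edgeR were HOXA5, HOXC4, HOXB3, HOXD10, HOXB2 and HOXD9, and none of them passed. HOXA5 had 5.99, 7.67 and 7.10 CPM in the NC libraries and 4.95, 6.43 and 5.35 CPM in the PRDM16 libraries, a log2 fold change of -0.31 ± 0.17 (SE) with an edgeR adjusted p of 0.330. HOXC4 had 2.39, 2.91 and 2.40 CPM against 1.30, 2.19 and 2.37 CPM, a log2 fold change of -0.37 ± 0.24 (SE) with an edgeR adjusted p of 0.383. HOXC4 was the gene whose groups did not overlap, by a margin between 2.39 and 2.37 CPM, and its low mean came from PRDM16 library 1. HOXD10 had 5.38, 5.17 and 4.90 CPM against 5.05, 3.30 and 4.42 CPM, a log2 fold change of -0.28 ± 0.19 (SE) with an edgeR adjusted p of 0.404. PRDM16 libraries 2 and 3 lay below every NC library, and PRDM16 library 1 lay within the NC range.

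The other 3 had smaller fold changes. HOXB3 had 45.8, 51.4 and 50.2 CPM in the NC libraries and 39.3, 46.3 and 44.3 CPM in the PRDM16 libraries, a log2 fold change of -0.18 ± 0.12 (SE) with an edgeR adjusted p of 0.399. HOXB2 had 98.0, 68.8 and 81.8 CPM against 88.4, 93.3 and 95.6 CPM, a log2 fold change of 0.16 ± 0.12 (SE) with an edgeR adjusted p of 0.468. For HOXB2 the NC libraries spread more widely (SD 14.6 CPM) than the PRDM16 libraries (SD 3.65 CPM), and held both the highest and the lowest value. HOXD9 had 7.95, 7.74 and 7.20 CPM against 10.1, 7.90 and 8.32 CPM, a log2 fold change of 0.19 ± 0.15 (SE) with an edgeR adjusted p of 0.471.

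The leading gene of each cluster differed by less than the standard error of its change. HOXB9 changed by 0.04 ± 0.12, HOXA10 by -0.02 ± 0.14, HOXC10 by -0.03 ± 0.13 and HOXD11 by 0.11 ± 0.14 on the log2 scale (SE), with edgeR adjusted p of 0.855, 0.933, 0.908 and 0.659. The kidney paralogs HOXA11 and HOXC11 stood at 0.04 ± 0.16 and 0.10 ± 0.15 (SE). At the borders, the 5 genes that were not on stayed under 1 TPM with PRDM16, and none of them entered the test.

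Summed over whole clusters, differences were small. HOXB summed to 376.6 ± 35.5 CPM with NC and 382.8 ± 26.0 CPM with PRDM16 (SD, n = 3), and HOXA to 66.6 ± 2.17 and 66.2 ± 5.93 CPM. HOXC summed to 64.4 ± 5.30 and 63.4 ± 2.99 CPM, and HOXD to 74.6 ± 5.73 and 74.4 ± 1.64 CPM (SD, n = 3). The differences, 0.02 for HOXB, -0.01 for HOXA, -0.02 for HOXC and -0.005 for HOXD on the log2 scale, were smaller than the spread within the groups. Two-sided exact permutation tests over the 6 libraries gave p = 0.7, 0.9, 0.9 and 1, where 0.1 is the smallest p that 3 against 3 allows. The HOXB share of HOX TPM was 65.0% ± 1.39 with NC and 65.9% ± 0.812 with PRDM16 (SD, n = 3).

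**Figure D4:**
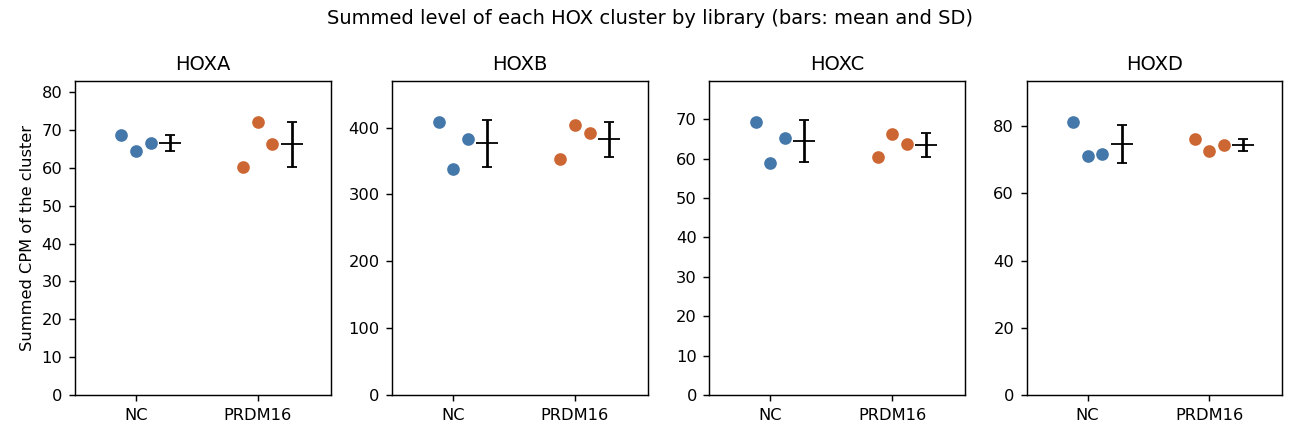
Summed CPM (scaled by TMM factors, axes from 0) of each HOX cluster in the 3 NC and 3 PRDM16 libraries, with mean and SD beside the points. HOXB averages 376.6 with NC and 382.8 with PRDM16 and the groups overlap in all 4 clusters.

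Signs were mixed in every cluster. Of the 34 genes, 19 had a log2 fold change above 0 and 15 below, with a median of 0.004 against -0.02 for all tested genes. Of all tested genes 46.9% were above 0, a share to set beside these counts and those of the lists below. HOXA had 7 of 10 above 0, HOXB 5 of 9, HOXC 3 of 8 and HOXD 4 of 7. Genes of groups 1 to 3 had 4 of 7 above 0, those of groups 4 to 8 had 7 of 15, and those of groups 9 to 13 had 8 of 12. This split depended on the processing. HOX genes are shorter (median 2158 bases against 4059) and richer in G and C (55.4% against 50.8%) than the tested genes. With the length and GC trend of each library removed, 6 of 34 were above 0, against 51.5% of all genes. Their median was -0.10, against 0.01 for all genes. In that fit 5 of 34 had an unadjusted p under 0.05, against 6.47% of all genes, and the smallest edgeR adjusted p was 0.752, for HOXA5. A direction of the HOX genes as a group was thus not established, while 0 of 34 passed in either fit (0.036% of all genes did with the trend removed).

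Deviations of the HOX genes differed between libraries. PRDM16 library 1, the shallowest, was the lowest of the 6 for 14 of the 34 genes, where it was the lowest for 20.4% of all tested genes. Its HOXB and HOXA genes lay lowest, with a median of -0.23 and -0.18 from the 6-library mean on the log2 scale, while its HOXD genes lay at 0.04. NC library 2 was the lowest for 11 of 34, close to its 32.8% of all tested genes. NC library 1 was the highest for 10 of 34, a count for which the share over all tested genes was not computed. The widest single departures were HOXA6 in NC library 1, at -0.76, and HOXC4 in PRDM16 library 1, at -0.71.

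**Figure D5:**
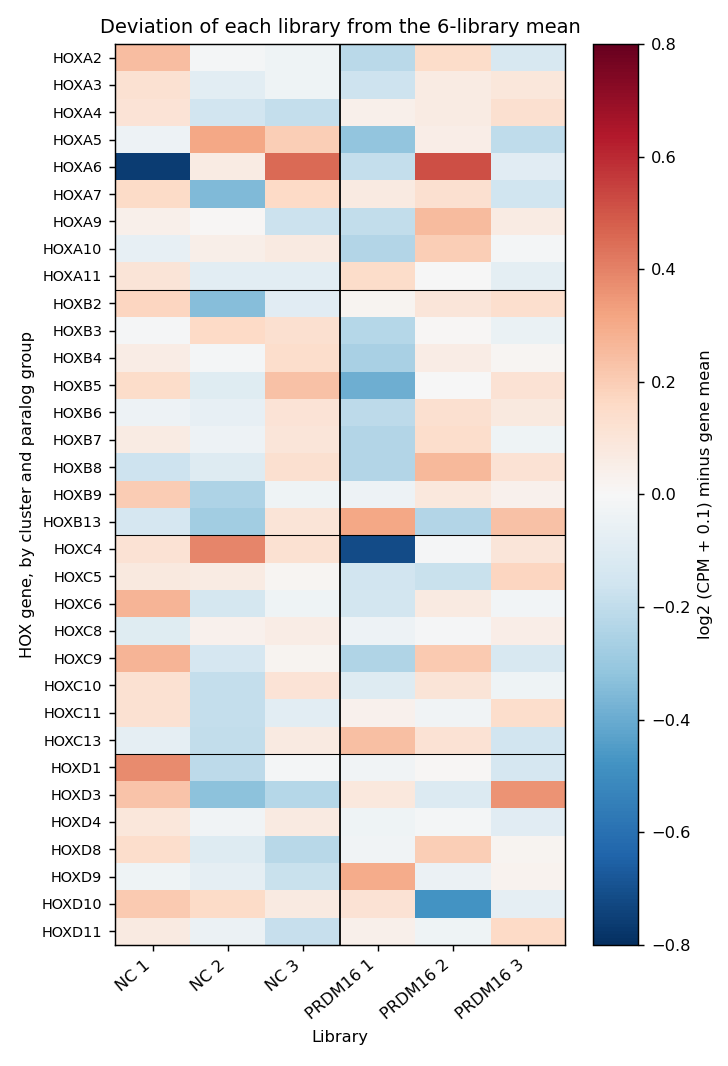
Deviation of log2 (CPM + 0.1) from the gene's mean over the 6 libraries, for tested HOX genes (rows, by cluster) in each library (columns; the line parts NC from PRDM16). Blue is below and red above the mean; the bluest squares are HOXA6 in NC library 1 at -0.76 and HOXC4 in PRDM16 library 1 at -0.71.

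Noncoding RNAs are made from within all 4 clusters. Of 28 genes other than HOX genes listed in or at the clusters, 18 were on, 22 were tested and 0 passed (10 above 0, 12 below, median -0.02). The 28 also include PRAC1, PRAC2 and the readthrough gene HOXA10-HOXA9, so they are not a count of noncoding RNAs alone. An unadjusted p under 0.05 was found for 1 of the 22, against 16% of all tested genes. With the length and GC trend removed, the 17 of them with a GC value had 5 above 0 and 12 below, a median of -0.23, and 2 with an unadjusted p under 0.05, against 6.47% of all genes. The highest were LOC101060400, an RNA between HOXB9 and HOXB13, at 33.7 ± 2.09 TPM, HOXC-AS2 at 23.7 TPM and HAGLR, which starts next to HOXD1, at 20.4 TPM on average over 6 libraries. HOXB-AS3, a spliced RNA of the HOXB5 and HOXB6 region, had the smallest p, with 3.68 ± 1.04 CPM in NC and 2.41 ± 0.442 CPM in PRDM16 libraries (SD, n = 3). Its log2 fold change was -0.60 ± 0.23 (SE) and its edgeR adjusted p 0.297. HOTAIRM1, from the HOXA cluster, stood at 6.29 ± 1.38 and 5.06 ± 0.254 CPM (SD, n = 3). HOTAIR, from the HOXC cluster, was at 1.65 to 3.29 TPM. Of 17 tested genes that flank the clusters, 0 passed, 6 were above 0 and 3 had an unadjusted p under 0.05, against 16% of all genes (median -0.14). With the trend removed, 8 of the 17 were above 0 and 1 had an unadjusted p under 0.05, against 6.47% (median -0.01). CBX5, which encodes a heterochromatin protein, had the smallest p among them, at 230 ± 35.8 CPM with NC and 186 ± 4.76 CPM with PRDM16 (SD, n = 3, edgeR adjusted p = 0.298).

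HOX proteins bind DNA with partners of the TALE class, PBX, MEIS and PKNOX. PBX3 was the highest, at 53.1 ± 5.62 TPM, followed by PKNOX1 at 11.7 TPM and PBX4 at 2.84 TPM, while MEIS1 averaged 0.503 TPM (n = 6). Of 8 tested, 0 passed, 2 were above 0 and 0 had an unadjusted p under 0.05, against 16% of all genes (median -0.11, and -0.10 with the trend removed). MEIS1 had the smallest p, at 0.989 ± 0.256 CPM with NC and 0.661 ± 0.0776 CPM with PRDM16 (SD, n = 3, edgeR adjusted p = 0.324). PBX2 is listed at 7 places, so its counts are split. Summed over them it had 64, 65 and 68 counts in the NC libraries and 81, 67 and 112 in the PRDM16 libraries. A Polycomb gene and a retinoic acid receptor gene of the lists below are split likewise, over 6 places each. Each of these genes enters the counts of its list by a single listing. Of 9 other cofactors and antagonists, led by BTG2 at 215 TPM and JUN at 123 TPM, 0 passed and 3 were above 0 (median -0.14). An unadjusted p under 0.05 was found for 0 of the 9, against 16% of all genes. The direction turned with the trend removed, where 6 of the 9 were above 0 and the median was 0.04. In that fit 1 of the 9 had an unadjusted p under 0.05, against 6.47% of all genes.

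Polycomb and Trithorax complexes keep HOX genes off or on. Of 24 tested Polycomb genes, 0 passed, 11 were above 0 and 4 had an unadjusted p under 0.05, against 16% of all genes (median -0.02). With the trend removed 1 of the 24 did, against 6.47%. The smallest p was that of AEBP2, a cofactor of the complex that methylates H3K27, at 27.4 ± 4.65 CPM with NC and 20.8 ± 1.34 CPM with PRDM16 (SD, n = 3, edgeR adjusted p = 0.287). Of 20 Trithorax and demethylase genes, 0 passed, 7 were above 0 and 4 had an unadjusted p under 0.05, against 16% of all genes (median -0.09). With the trend removed 9 were above 0 and 1 had an unadjusted p under 0.05, against 6.47% (median -0.01). BPTF, a chromatin remodeller, had the smallest p before that removal, at 44.9 ± 10.7 and 33.2 ± 3.79 CPM (SD, n = 3, edgeR adjusted p = 0.291). Of 9 tested genes of the boundary factors and cohesin, which hold the HOX chromatin loops, 0 passed, 8 were below 0 and 5 had an unadjusted p under 0.05, against 16% of all genes (median -0.28). With the length and GC trend removed 8 of those 9 were still below 0, but the median was -0.06 and 0 had an unadjusted p under 0.05, against 6.47%. RAD21, a subunit of cohesin, stood at 134 ± 17.9 CPM with NC and 111 ± 4.38 CPM with PRDM16 (SD, n = 3, edgeR adjusted p = 0.298).

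Upstream of HOX genes in the embryo stand retinoic acid and the CDX factors. CDX2 and CDX4 were listed at 0, while the receptor genes RXRA and RARA averaged 46.3 and 21.2 TPM, and RDH10, a retinol dehydrogenase, 17.8 TPM (n = 6). Of 12 tested genes of this list, 0 passed, 6 were above 0 (median -0.01, and -0.10 with 3 above 0 with the trend removed) and 1 had an unadjusted p under 0.05, against 16% of all genes. This was DHRS3, a reductase that lowers retinoic acid, at 16.2 ± 1.20 and 20.2 ± 4.04 CPM (SD, n = 3, edgeR adjusted p = 0.302). After removal of the trend, 0 of the 12 had an unadjusted p under 0.05, against 6.47% of all genes. Among the factors of the embryonic kidney that work beside group 11, EYA1 and SIX2 were at most at 0.174 TPM, whereas PAX8 averaged 164 TPM, FOXD1 108 TPM and GDNF 21.5 TPM (n = 6). PAX2 averaged 17.5 TPM. Of 13 tested, 0 passed and 8 were above 0 (median 0.04, and 0.002 with the trend removed). Among these 13, 0 had an unadjusted p under 0.05, against 16% of all genes, and 0 with the trend removed, against 6.47%. Of 16 tested genes named elsewhere as HOX targets, 0 passed, 7 were above 0 and 2 had an unadjusted p under 0.05, below the 16% of all genes (median -0.04, and -0.01 with the trend removed). The 2 were EPHB4 at 135 ± 12.2 and 161 ± 11.9 CPM and EPHA2 at 821 ± 107 and 984 ± 51.8 CPM (SD, n = 3), both receptors for ephrins, with edgeR adjusted p of 0.303 and 0.312. Only 1 of the 16 had an unadjusted p under 0.05 with the trend removed, against 6.47% of all genes. Of 6 tested podocyte genes, 0 passed and 3 were above 0 (median 0.002, and -0.01 with the trend removed). CD2AP, which encodes an adaptor of the slit diaphragm, was the 1 with an unadjusted p under 0.05, against 16% of all genes. It stood at 206 ± 46.5 CPM with NC and 161 ± 16.1 CPM with PRDM16 (SD, n = 3, edgeR adjusted p = 0.298). Its groups did not overlap on the CPM scale, as was so for 21% of all tested genes. On the TPM scale they overlapped, with NC library 3 at 81.9 and PRDM16 library 3 at 83.5 TPM. NC library 2 was the highest, at 134 TPM. After the trend was removed, 0 of the 6 podocyte genes had an unadjusted p under 0.05, against 6.47% of all genes.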

How the data were processed

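RNA was measured in 6 libraries of HPC cells (3 NC, 3 PRDM16, grouped by title). Poly(A) RNA was selected with oligo(dT) and primed with random hexamers, per the labels' protocols; the genome is hg38, per the submitters' processing notes. The sources used here do not give the aligner, the counter, its strand setting or the annotation. The authors deposited, per the file headers, raw counts, TPM and FPKM for 38648 genes; the lines of 7 genes were broken and were rejoined. The deposited TPM values served to compare genes, and FPKM values only as an alternative. TPM removes gene length but not overlap between genes.

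Counts were tested with edgeR 4.0.16 (quasi-likelihood, robust, TMM factors, default filter with a minimum count of 10 and total of 15; R 4.3.3) over 15381 genes, with Benjamini-Hochberg adjustment over all of them and a threshold of 0.05. CPM values are scaled by TMM factors. Standard errors are the log2 fold change over the square root of edgeR's F. The script was tested on simulated data. Alternatives were DESeq2 1.42.0, limma-voom (limma 3.58.1), other scalings and filters, summed listings, a replicate block, the removal of each library's trend in length and GC content (natural splines, 5 degrees of freedom each; 13892 genes with a GC value, all 34 tested HOX genes among them), and leaving out each library. Same-numbered libraries did not deviate together, so no pairing was used. No pair of libraries agreed within sampling noise.

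The HOX genes, the other gene lists and the tests were chosen with earlier results of these data known. Values in every library were to be given for up to 25 HOX genes that were on, full statistics for the 6 with the smallest p and the highest of each cluster, and from each other list the 3 with the smallest p and the 3 with the highest TPM, of which some are named. Other genes named in the text (EVX1, EVX2, HOTTIP, HOTAIR, PRAC1, PRAC2, CDX2, CDX4, EYA1, SIX2, PAX2 and the marker genes) were chosen after their values were seen. Coordinates of genes are those of the deposited tables, and promoter windows are from RefSeq (GRCh38.p14), matched by symbol; where a gene had several starts, the nearest to the 5′ end of the deposited model was taken. Some genes enter the counts over the HOX genes and the lists but are not reported here by name or drawn.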

Additional observations from a re-analysis of the deposited data

How the results depend on the processing

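In all 15 alternatives 0 HOX genes passed, and 14 of 34 kept the direction of their change in all of them; the lowest adjusted p of any was 0.135 (HOXB2 in edgeR without NC replicate 1). Genes passed over all tested, 10 in edgeR with every library, came to 48 with DESeq2, 4 with limma-voom, 5 with library totals only, 107 with no count filter, 18 with listings of a symbol summed, 5 with the length and GC trend removed, and between 7 and 173 with 1 library left out (173 without NC replicate 3, 59 without PRDM16 replicate 2, 20 without PRDM16 replicate 1). The number of HOX genes above 0 was 6 and their median log2 fold change -0.1044 with the length and GC trend removed. In the fits without that removal the number ran from 13 to 20, as it did over the fits that leave out 1 library.

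With the replicate block, 10 genes passed, 18 of 34 HOX genes were above 0 and their median was 0.0001; with the block and the trend removed, 4 genes passed, 5 HOX genes were above 0 and the median was -0.1096. The block changed no HOX call. Deviations of same-numbered libraries correlated at 0.0945, -0.104 and -0.131, so the numbers give no sign of pairing.

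Of the 34 tested HOX genes, 20 turned in sign in at least 1 alternative, among them 6 of the 10 genes whose statistics are given in full. Without the trend HOXB2 came to -0.009179, HOXB9 to -0.05675, HOXD9 to -0.08984 and HOXD11 to -0.09088, and with the block added to -0.009398, -0.05576, -0.08736 and -0.09207. HOXB9 was at -0.01564 with library totals only. With 1 library left out HOXA10 ranged from -0.1326 to 0.07359, HOXC10 from -0.1204 to 0.02039 and HOXB9 from -0.0548 to 0.1594. Sums of TPM in place of CPM gave -0.1501 for HOXA, -0.1653 for HOXC and -0.1249 for HOXD, on a scale where the median of all tested genes moved by -0.16. By counts in place of TPM, HOXC made 10.94% and HOXD 12.77% of the HOX total. At most 3 counts in every library was met by 1 HOX gene (HOXB1), 0 counts by 0 and at most 10 counts by 4. Library totals of 20147135 to 41280350 counts limit what can be said of the 5 genes that were not on.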
